A study of Homo sapiens with 4 samples.

Results

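The p53 pathway was described here through 32 genes, comprising regulators of the transcription factor p53 and its target genes outside the BCL2 family, found by symbol among 58736 features listed for each library. All 32 were found, and 31 had a level high enough to be tested. The RNA came from HEK293A cells, an embryonic kidney epithelial line, in 2 groups of 2 libraries. The negative control group consisted of replicates 1 and 3, and the other group, replicates 2 and 3, received a DNA probe named NT1_hp2. Both groups were given 1 µg of plasmid for FEN1, a flap endonuclease that the study directs with hairpin-forming DNA probes, then 500 pmol of probe 48 h later, and RNA was prepared after 72 h. The labels do not say what NT1_hp2 was directed to, what the negative control received as probe, or whether replicates were separate cultures. The p-values therefore reflect only library-to-library spread within a group, part or all of which may be technical.

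p53 is a transcription factor held at low levels by the ubiquitin ligase MDM2 and its relative MDM4. DNA damage kinases such as ATM and CHEK2 release it, and it then activates genes for cell cycle arrest, DNA repair, cell death and metabolism, including MDM2 itself. HEK293 lines were made with adenovirus and carry viral early-region genes, whose products bind p53. In such lines target genes can be expressed while the response to damage is altered.

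Many targets carry a p53 response element, a pair of 10-base repeats, and the 5 members in which one lay just before an annotated start are shown here because they let the element be set beside the level of the same gene. RefSeq (build GRCh38.p14) windows were found for 27 of the 32 members, and GADD45A, PHLDA3, RRM2B, TNFRSF10B and TP53INP1 had no entry. The 250 bases before each start were searched for the p53 consensus element, which reads the same on both strands, with the C and G at the centre of each repeat required, at most 1 base between the repeats and at most 3 mismatches. The limit of 3 was chosen after the matches were seen. Capitals mark the 20-base match in each sequence.
MDM2 (chr12:68808893-68808972, plus strand, 2 mismatches): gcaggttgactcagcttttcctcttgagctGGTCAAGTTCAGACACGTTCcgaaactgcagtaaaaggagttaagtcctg
SESN1 (chr6:109008989-109009067, minus strand, 3 mismatches): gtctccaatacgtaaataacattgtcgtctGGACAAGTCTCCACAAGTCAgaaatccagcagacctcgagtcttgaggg
FAS (chr10:88991304-88991333, plus strand, 2 mismatches): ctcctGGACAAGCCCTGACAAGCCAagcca
AEN (chr15:88621301-88621330, plus strand, 2 mismatches): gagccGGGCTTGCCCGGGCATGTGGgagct
FDXR (chr17:74872995-74873020, minus strand, 3 mismatches): ggcccGGGCAGGAGCGGGCTTGCCCt
Such a match was present in 18.5% of the members with a window and in 2.42% of all 27305 genes with one. With at most 2 mismatches it was present in 3 members and in 0.564% of all genes. In GENCODE 29 the MDM2 and SESN1 matches lay inside the gene but outside its annotated exons, and those of FAS, AEN and FDXR lay in an annotated exon. Elsewhere no match says only that these letters are not in the window.

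Among the members, mRNA of 2 was higher and mRNA of 6 was lower in cells given NT1_hp2 than in the negative control. The genes that rose were MDM4, an inhibitor of p53, and GADD45A, a stress-induced arrest gene. The genes that fell were CDKN1A and BTG2, which restrain the cell cycle, the nucleotide excision repair gene XPC, the AKT inhibitor gene PHLDA3, and the redox genes FDXR and TP53I3. These calls came from limma-trend on log2(FPKM + 1) with Benjamini-Hochberg adjusted p under 0.05 over all 16362 tested genes. FPKM is the read count per kilobase of exon, scaled to a size of the library. The size implied by the deposited values was 0.966 and 1.005 times the reads recovered from them in the control libraries. In the NT1_hp2 libraries it was 1.035 and 1.044 times. Fold changes on the log2(FPKM + 1) scale understate the change of genes at low levels. The 6 lower members made up 19.4% of the 31 tested, where 8.92% of all tested genes were called lower. The 2 higher members made up 6.45%, close to the 5.00% of all tested genes called higher. This balance moved with the scaling: with libraries scaled to read totals, 6 members were higher and 5 lower, and 1536 of all tested genes were higher and 1331 lower, against 818 and 1460. The median log2 fold change was −0.017 over the tested members and −0.0075 over all tested genes. With protein-coding genes only, 3 members were higher and 10 lower, where 1778 of 12149 genes were higher and 2938 lower.

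The 4 libraries held 12506203 to 14908687 reads recovered from the deposited values, and 3 reads in a gene of 1 kilobase amounted to 0.208 to 0.239 FPKM. Epithelial keratin mRNAs marked the line, with KRT8 at 84.2 to 112 FPKM and KRT18 at 54.4 to 77.7 FPKM, and KRT18 also fell (limma-trend adjusted p = 0.0440). VIM, CDH2 and NEFL were at 14.6 to 110 FPKM, and the kidney gene PAX2 was at most 0.542 FPKM. The leukocyte genes PTPRC and CD3E were listed at 0 in all libraries, and CD68, PECAM1, CDH5, COL1A2, DCN, ALB and APOA1 had at most 6 reads in any library. The endothelial gene VWF was at 0.214 to 0.298 FPKM, with up to 44 reads, and NEFM, a neurofilament gene like NEFL, was at most 0.840 FPKM. The fibroblast-associated genes COL1A1 and LUM were at 7.85 to 8.44 and 1.5 to 1.91 FPKM, and neither passed. Mitochondrial genes took 6.06% and 5.92% of reads in the control libraries and 4.33% and 4.29% in the NT1_hp2 libraries, and the part of this in the results was not tested.

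**Figure D1:**
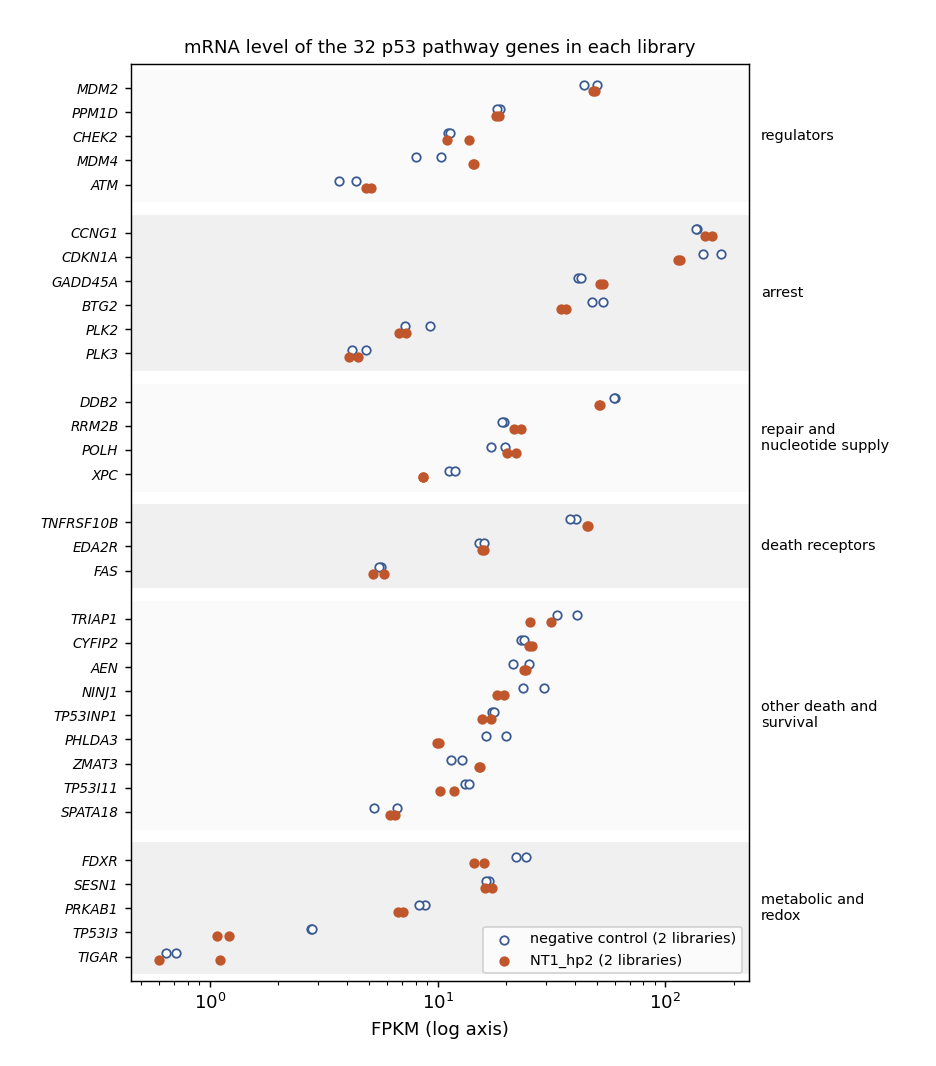
FPKM of each of the 32 genes on a log axis, grouped by role, with open circles for the 2 negative control libraries and filled circles for the 2 NT1_hp2 libraries. CCNG1 and CDKN1A lie highest, at means of 146 and 138 FPKM over the 4 libraries, and TIGAR lowest, at 0.764 FPKM.

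The regulators were led in level by MDM2 and in change by MDM4. MDM4 binds p53 and blocks its activity, and its mRNA stood at 8.0 and 10.3 FPKM in the negative control and at 14.5 and 14.3 FPKM in NT1_hp2. Both NT1_hp2 libraries were above both control libraries. The mean was 1.57 times that of the control, with a log2 fold change of 0.61 (SE 0.12; adjusted p = 0.0427 by limma-trend).

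MDM2, the ligase that marks p53 for degradation and is itself a p53 target, stood at 43.9 and 49.9 FPKM in the control and at 49.0 and 47.9 FPKM in NT1_hp2. The groups overlapped, and the difference was 0.049 on the log2 scale (95% interval −0.17 to 0.27). MDM2 thus gave no detectable difference at this replication. PPM1D, a phosphatase that switches the response off, was at 18.5 ± 0.443 FPKM in the control and 18.3 ± 0.308 FPKM in NT1_hp2 (mean ± SD, n = 2 each, as below). The kinase genes ATM and CHEK2 had log2 differences of 0.25 and 0.13 that did not pass (limma-trend adjusted p = 0.143 and 0.467). ATM did not overlap between groups, at 3.70 and 4.39 FPKM in the control against 4.87 and 5.12 FPKM in NT1_hp2.

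Arrest genes included members that changed in opposite directions. CDKN1A encodes p21, the inhibitor of cyclin-dependent kinases through which p53 stops the cycle. It stood at 175 and 147 FPKM in the control and at 114 and 116 FPKM in NT1_hp2. Both NT1_hp2 libraries were the lower ones, and the mean was 0.715 times the control, a log2 fold change of −0.48 (SE 0.11; adjusted p = 0.0489 by limma-trend). CDKN1A did not pass in 4 of the 10 alternatives that kept all libraries. Its limma-trend adjusted p was 0.0523 with median-of-ratios scaling, 0.0519 without robust shrinkage, 0.571 without the filter and 0.118 with length and GC trends removed, where the log2 fold change was −0.21. CDKN1A shares 146 exon bases with DINOL, an RNA on the other strand at 1.5 FPKM, which the library kit cannot tell apart.

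BTG2, an antiproliferative gene, stood at 53.3 and 47.5 FPKM in the control and at 34.95 and 36.5 FPKM in NT1_hp2. Its groups did not overlap, and its log2 fold change was −0.48 (SE 0.081; adjusted p = 0.0362 by limma-trend). GADD45A, which links stress to arrest and repair, went the other way, from 41.3 and 42.7 FPKM to 52.98 and 51.8 FPKM. The groups did not overlap. Its mean was 1.25 times the control mean, a log2 fold change of 0.31 (SE 0.063; adjusted p = 0.0430 by limma-trend).

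CCNG1, a cyclin that recruits a phosphatase to MDM2, was the most abundant member, at 137 and 136 FPKM in the control and 161 and 149 FPKM in NT1_hp2. Its groups did not overlap, but the log2 difference of 0.18 did not pass (limma-trend adjusted p = 0.154). On the FPKM scale CDKN1A stood above CCNG1 in both control libraries and below it in both NT1_hp2 libraries. With length and GC trends removed, CCNG1 was at 0.030 and CDKN1A at −0.21, and neither passed. The polo-like kinase genes PLK2 and PLK3 overlapped between groups, with log2 differences of −0.20 and −0.073 that did not pass.

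Of the repair and nucleotide supply genes, 1 of 4 fell (25%, against 8.92% of all tested genes) and 3 did not pass. XPC encodes the damage sensor that starts global nucleotide excision repair, and it stood at 11.2 and 11.9 FPKM in the control and at 8.66 and 8.63 FPKM in NT1_hp2. Its groups did not overlap, and the log2 fold change was −0.38 (SE 0.068; adjusted p = 0.0379 by limma-trend). Exons of XPC share 1140 bases with XPC-AS1 on the other strand, at 1.61 FPKM, and 318 bases with LSM3, at 8.05 FPKM.

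DDB2, which recognises ultraviolet lesions ahead of XPC, stood at 59.8 and 59.4 FPKM in the control and at 51.2 and 51.6 FPKM in NT1_hp2. Its difference of −0.21 did not pass (95% interval −0.37 to −0.052, limma-trend adjusted p = 0.0785). The translesion polymerase gene POLH and the ribonucleotide reductase subunit gene RRM2B were at 0.19 and 0.20, also without passing. With length and GC trends removed, POLH was at 0.20 and RRM2B at −0.018. In all 4 of these genes the groups did not overlap, in 2 genes with NT1_hp2 higher and in 2 with it lower. Groups did not overlap in 66.8% of all tested genes, and in 21 of the 31 tested members (67.7%).

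None of the 3 death receptor genes passed the test, where 13.9% of all tested genes did. FAS, the receptor that triggers caspases on binding its ligand, stood at 5.67 and 5.52 FPKM in the control and at 5.84 and 5.18 FPKM in NT1_hp2. The groups overlapped, with a difference of −0.019 (95% interval −0.24 to 0.20). FAS shares 380 exon bases with ACTA2 on the other strand, at 6.80 FPKM, which the kit cannot tell apart. TNFRSF10B, a receptor of the ligand TRAIL, stood at 40.4 and 38.3 FPKM in the control and at 45.6 and 45.2 FPKM in NT1_hp2. It was higher in both NT1_hp2 libraries, with a log2 difference of 0.20 (limma-trend adjusted p = 0.0925), and it passed when libraries were scaled by upper quartiles (adjusted p = 0.0338, limma-trend). EDA2R, a receptor of ectodysplasin, was at 15.6 ± 0.590 FPKM and 15.8 ± 0.212 FPKM.

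Among 9 other genes of death and survival, 1 fell (11.1%, against 8.92% of all tested genes) and 8 did not pass. PHLDA3, which competes with AKT for membrane lipids, stood at 20.01 and 16.3 FPKM in the control and at 10.2 and 9.92 FPKM in NT1_hp2. It shares 598 exon bases (19.1%) with ENSG00000224818 on the same strand, which was listed at 0. How reads there were assigned is unknown, so the level of PHLDA3 is uncertain. The mean was 0.554 times the control, a log2 fold change of −0.79 (SE 0.11; adjusted p = 0.0340 by limma-trend). The groups did not overlap.

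The mitochondrial survival gene TRIAP1, the most abundant of this group, stood at 40.7 and 33.4 FPKM in the control and at 31.5 and 25.4 FPKM in NT1_hp2. The groups did not overlap, but the difference of −0.37 did not pass (95% interval −0.74 to 0.0026). The membrane-rupture gene NINJ1 was at −0.46 and the zinc finger gene ZMAT3 at 0.31, with limma-trend adjusted p of 0.0597 and 0.0591. TP53I11 was at −0.27 without passing, with both NT1_hp2 libraries below both controls. CYFIP2, SPATA18, the nuclease gene AEN and the autophagy-linked gene TP53INP1 had differences of 0.11, 0.090, 0.055 and −0.085, which did not pass.

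Metabolic and redox genes had 2 that fell among 4 tested (50%, against 8.92% of all tested genes), and the lowest group median, −0.43. The medians of the other groups were 0.13 for regulators, −0.14 for arrest, −0.011 for repair and nucleotide supply, 0.018 for death receptors and −0.085 for other death and survival genes. With 3 to 9 tested genes in a group, these medians are descriptions, and differences between the groups were not tested. The metabolic and redox group also had the highest median GC content of the role groups, 53.3%. With length and GC trends removed, its genes FDXR, TP53I3, PRKAB1 and SESN1 were at −0.28, −0.55, −0.29 and −0.069, and none passed.

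FDXR, a mitochondrial reductase that passes electrons to ferredoxin, stood at 24.4 and 22.01 FPKM in the control and at 15.96 and 14.5 FPKM in NT1_hp2. The log2 fold change was −0.58 (SE 0.085; adjusted p = 0.0340 by limma-trend), and the groups did not overlap. FDXR was the only member that passed in the main fit among the 5 whose element is printed above. MDM2, FAS, SESN1 and AEN had differences from −0.019 to 0.055. With length and GC trends removed FDXR did not pass either, at −0.28. MDM2, FAS, SESN1 and AEN were then at −0.16, −0.18, −0.069 and 0.11.

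TP53I3, a quinone oxidoreductase, had the largest decrease, from 2.79 and 2.82 FPKM to 1.07 and 1.22 FPKM, with no overlap. These levels rested on 93 and 82 reads in the control and on 35 and 40 reads in NT1_hp2. The mean was 0.408 times the control, a log2 fold change of −0.83 (SE 0.12; adjusted p = 0.0340 by limma-trend). The sestrin gene SESN1 was at 16.5 ± 0.354 FPKM and 16.8 ± 0.794 FPKM. PRKAB1, a subunit of the energy sensor AMPK, was at 8.57 ± 0.351 FPKM and 6.88 ± 0.206 FPKM without passing (limma-trend adjusted p = 0.0614).

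TIGAR, a phosphatase that diverts glucose from glycolysis, was the member too low to test. It had 37 and 36 reads in the control and 34 and 63 reads in NT1_hp2, or 0.640, 0.713, 0.599 and 1.10 FPKM. The groups overlapped. TIGAR shares 1711 exon bases (42.6%) with ENSG00000285901 on the same strand, which was listed at 0, and how reads there were assigned is unknown, so its level is uncertain.

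**Figure D2:**
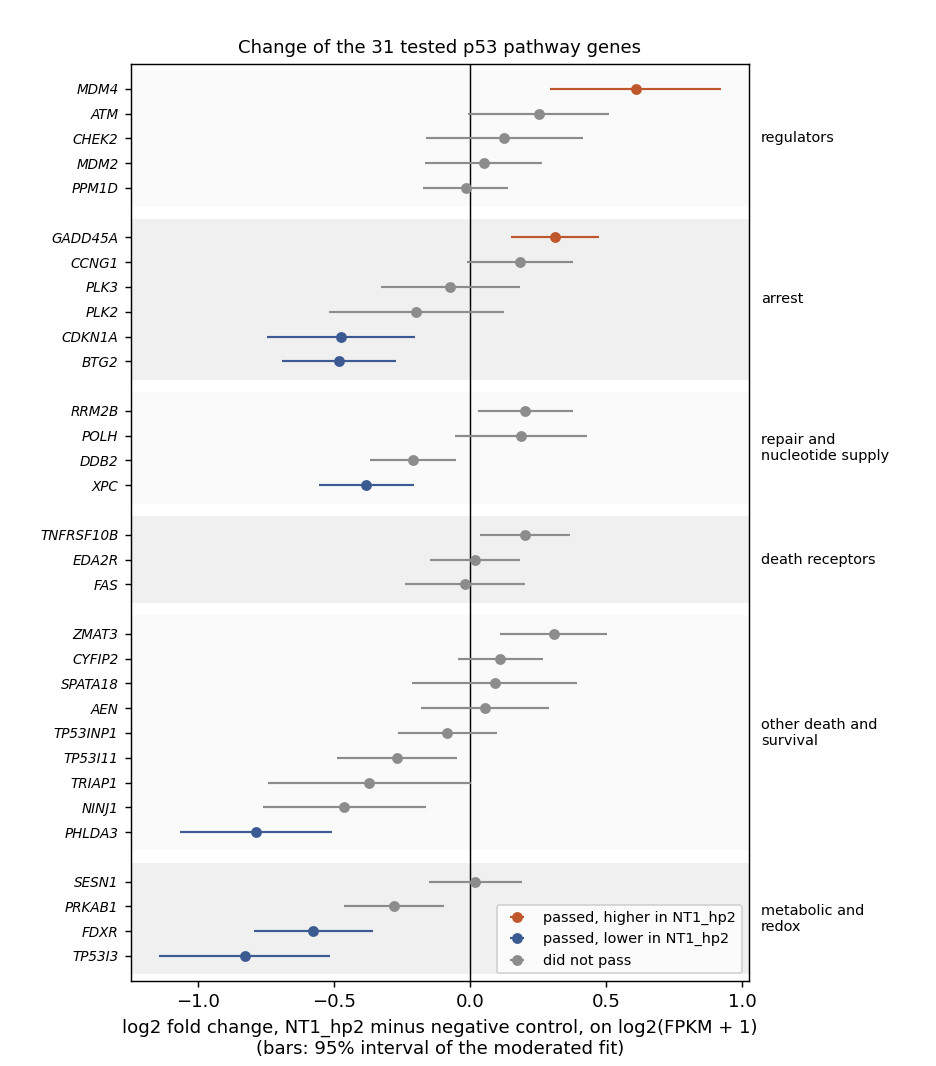
Log2 fold change (NT1_hp2 minus negative control, on log2(FPKM + 1)) of the 31 tested genes by role, with 95% intervals of the moderated fit; orange and blue mark genes that passed higher and lower, grey those that did not pass. The 6 lower genes lie between −0.83 and −0.38, and the 2 higher at 0.31 and 0.61.

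In all, 8 members (25.8%) passed in either direction, where 13.9% of all tested genes did, and other settings changed the count in members and background together. With libraries scaled to read totals, 17.5% of all genes passed, and XPC was the lower member lost there. With limma-voom on recovered reads, 9 were higher and 9 lower, where 35.4% of all genes passed. With protein-coding genes only, 3 of 31 members were higher and 10 lower, where 38.8% of 12149 genes passed. In that fit the share of members that passed was near that of all genes. With at least 1 FPKM required in all 4 libraries, 3 were higher and 8 lower, where 26.2% passed.

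Leaving out 1 library leaves a group of 1, whose spread is taken from the other group, and almost no gene in the table passed in such fits. Without negative control replicate 1, negative control replicate 3, NT1_hp2 replicate 2 or NT1_hp2 replicate 3, 0 members passed limma-trend. In those fits, in that order, the median log2 fold change of the members was −0.018, −0.040, −0.022 and 0.031. Over all tested genes it was −0.0057, −0.020, −0.0089 and −0.0076. All 8 called members kept the sign of their change under each of 14 alternative settings. In the omissions this was fixed in advance, because the groups of these genes did not overlap. The other settings used the same 4 libraries, so they are not independent checks. Over the omissions CDKN1A ranged from −0.60 to −0.35, MDM4 from 0.44 to 0.77 and PHLDA3 from −0.93 to −0.64.

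Change went with base composition, among members and in the whole table. The 6 members that fell had a median GC content of 58.2% in their longest transcript, against 45.2% for the 23 tested members that did not pass and 47.9% for all tested genes. MDM4 was at 42.4% and GADD45A at 51.5%. Spearman's rho between GC content and log2 fold change was −0.61 across the 31 members and −0.56 across all tested genes, given as a description because the genes share the same 4 libraries. The lower members were also short, with a median exon length of 3094 bases against 5044 bases for those that did not pass and 3995 bases for all tested genes. Spearman's rho between exon length and log2 fold change was 0.47 across the members and 0.094 across all tested genes.

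After smooth trends with length and GC content were removed from each library, 0 members passed limma-trend, as 1.80% of all genes tested in that fit did. In that fit 15 members had an unadjusted limma-trend p under 0.05, as did 4487 of all 16350 genes tested. PHLDA3 was then at −0.50 and TP53I3 at −0.55 (limma-trend adjusted p = 0.0530 and 0.0802). GADD45A moved to 0.44 (adjusted p = 0.0519), BTG2 to −0.38 (adjusted p = 0.0530), XPC to −0.28 (adjusted p = 0.0963) and MDM4 to 0.42 (adjusted p = 0.0827), all in limma-trend. CDKN1A and FDXR were at −0.21 and −0.28 in that fit, against −0.48 and −0.58 without the step, with limma-trend adjusted p of 0.118 and 0.109. ATM and ZMAT3, at 0.25 and 0.31 without the step, were at −0.025 and 0.071 with it. The part of base composition in these changes was not tested further.

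**Figure D3:**
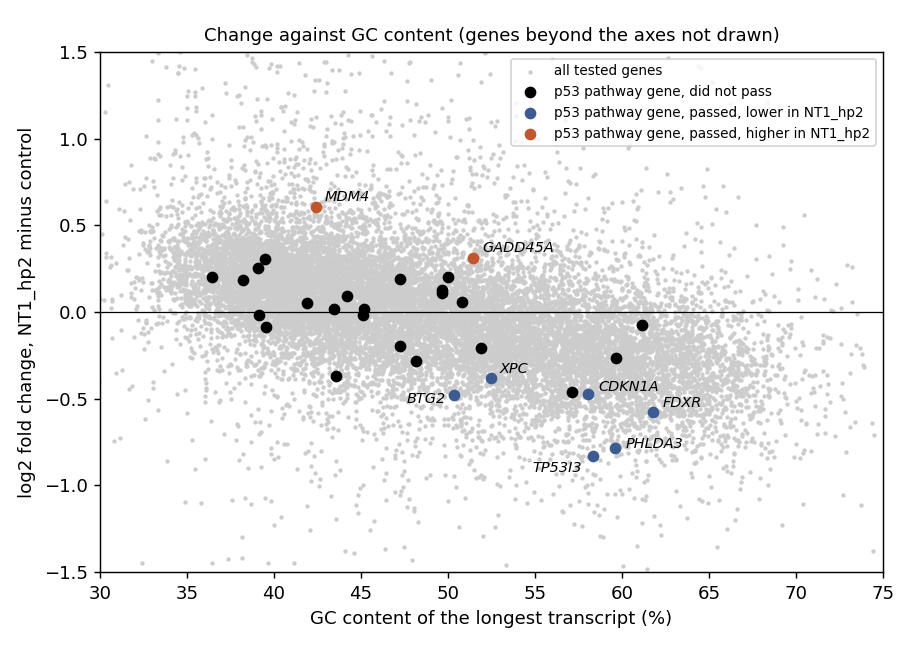
Log2 fold change against GC content of the longest transcript (%) for all tested genes (grey) and the p53 pathway genes (black where they did not pass, blue lower, orange higher). The grey cloud slopes downward, and the 6 lower genes sit between 50.3% and 61.8% GC.

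Other genes of the pathway were taken from 4 lists, which were chosen with earlier results of these data known. Of 48 further p53 targets 46 were tested, 2 rose and 6 fell, or 4.35% and 13.0%, with a median log2 fold change of −0.073. Over all tested genes 5.00% were higher and 8.92% lower. With protein-coding genes only, 6 of this list were higher and 12 lower, where 1778 of 12149 genes were higher and 2938 lower. After the length and GC trends were removed, 2 genes of this list were higher and 1 lower, and without any 1 library 0 and 0 passed limma-trend. GDF15, a stress cytokine, rose from 31.2 ± 0.0363 to 49.6 ± 2.22 FPKM. The lipin gene LPIN1 rose from 3.99 ± 0.0831 to 5.76 ± 0.0804 FPKM.

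SFN, the cell cycle inhibitor 14-3-3 sigma, fell from 12.2 ± 1.52 to 6.45 ± 0.592 FPKM. IER5, an immediate early gene, fell from 51.6 ± 6.23 to 29.8 ± 0.700 FPKM, and PIDD1, a death-domain adaptor, from 43.9 ± 4.35 to 30.8 ± 3.33 FPKM. PIDD1 shares 107 exon bases with RPLP2 on the other strand, at 243 FPKM, which the kit cannot tell apart, so its level is uncertain. The log2 fold changes of SERTAD1, PLTP and STEAP3 were −0.67, −0.56 and −0.49. PLTP shares 200 exon bases with CTSA on the other strand, at 6.58 FPKM, which was at −0.66. SESN2 and DDIT4, which are inhibitors of mTOR signalling, were at 0.18 and 0.030 and did not pass. DDIT4 shares 847 exon bases (41.2%) with DDIT4-AS1 on the other strand, which the kit cannot tell apart and which was listed at 0. How reads in these bases were assigned is unknown, so the level of DDIT4 is uncertain.

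Of 20 upstream kinases and cofactors 0 rose and 1 fell (5%, against 8.92% of all tested genes) in limma-trend, with a median of 0.10. With limma-voom on recovered reads 7 were higher and 1 lower, where 3343 of 16361 genes were higher and 2444 lower. The median exon length of the list was 8016.5 bases against 3995 for all tested genes, and the part of length was not tested. The gene that fell was RPL11, a ribosomal protein that binds MDM2, from 317 ± 56.1 to 175 ± 4.68 FPKM. Ribosomal protein genes have processed copies in the genome, and how reads that match them were counted is unknown, so its level is uncertain. RPL5, its partner on MDM2, was at −0.033, ATR at 0.31 and CHEK1 at 0.12, and these did not pass.

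Of 15 cell cycle genes that p53 represses through CDKN1A and the DREAM complex, 0 rose and 4 fell (26.7%, against 8.92% of all tested genes), with a median of −0.19. The mitotic genes PLK1 and CDC20 fell by 0.55 and 0.61 on the log2 scale, the survivin gene BIRC5 by 0.43 and the replication helicase gene MCM5 by 0.47. After the length and GC trends were removed, 1 gene of this list was higher and 0 were lower. With protein-coding genes only, 0 were higher and 7 lower, where 1778 of 12149 genes were higher and 2938 lower.

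**Figure D4:**
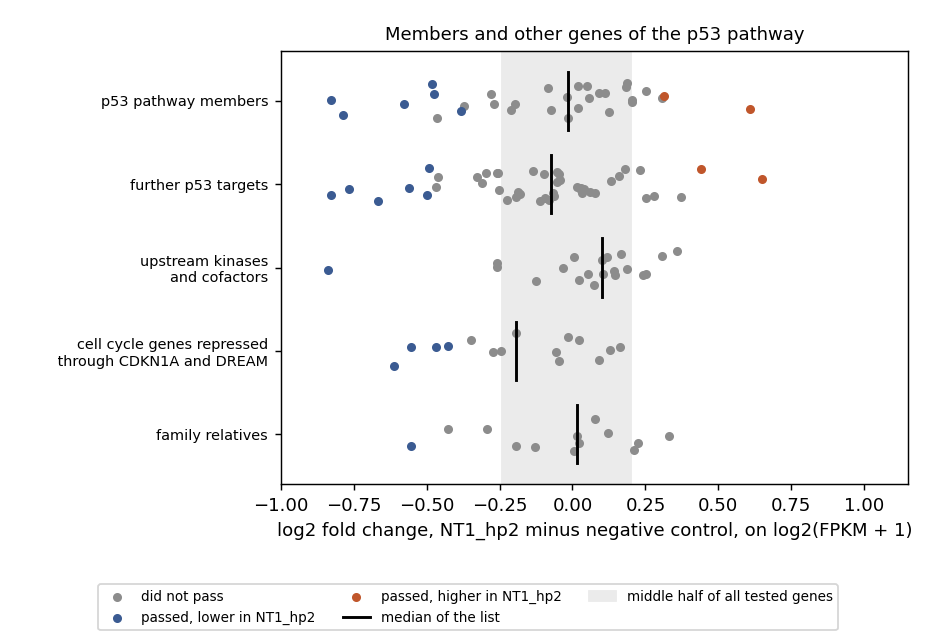
Log2 fold change of each tested gene in the members and in 4 lists of other pathway genes, with a black bar at each list's median and grey shading from the lower to the upper quartile of all tested genes (−0.24 to 0.20). List medians range from −0.19 to 0.10, inside the shading.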

How the data were processed

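The authors deposited 1 table per library with a value per gene, taken as FPKM from the values. Multiplied by summed GENCODE 29 exon length, 100% of values above 0 were whole multiples of 1 step per library (within 0.01), which gave reads. The submitters' processing notes name GRCh38.p12. Which aligner and counter were used is not given in the sources used here. Per the labels' protocols the kit was NEBNext Ultra, which does not mark strand.

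Genes reaching 1 FPKM in 2 or more libraries were compared as log2(FPKM + 1) with robust limma-trend (limma 3.58.1, R 4.3.3). The p-values were adjusted by Benjamini-Hochberg over all tested genes. The fit was also run on simulated counts without length or GC trends, which cannot show how the calls hold under such trends. A permutation test of 2 against 2 libraries cannot go below 0.333, so none was run. No files were identical, and libraries of a group differed by more than sampling noise (chi-square per degree of freedom 5.68 and 2.69). Trends with exon length and GC content were fitted with mgcv 1.9.3. The alternatives were 3 other scalings, limma-voom, no robust shrinkage, a pseudocount of 0.1, 2 other filters, protein-coding genes only, length and GC trends removed, and omission of each library.

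Genes given in detail were the members that passed, the largest change and the highest level in each role group, and 10 fixed names. Of the other lists, genes that passed are named, and others named were chosen after their values were seen. Members and lists were chosen with earlier results of these data known.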

Additional observations from a re-analysis of the deposited data

How the results depend on the processing

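No paired analysis was possible because the groups share only replicate number 3. The main counts were 2 members higher and 6 lower, with a median log2 fold change of −0.017. The number higher was 5 with upper-quartile scaling (1484 of all genes higher and 1428 lower), 6 with scaling to read totals and 9 with limma-voom, where 9 were lower. The median was then 0.051, 0.057 and 0.060. Those settings moved the median of all genes to between 0.048 and 0.068. With protein-coding genes only, 10 members were lower and 3 higher, where 2938 of 12149 genes were lower and 1778 higher. Without the filter 0 were higher and 0 lower in limma-trend, where 131 of 58736 genes were higher and 0 lower. At an unadjusted limma-trend p under 0.05 the members were 4 and 8, where 4836 of all genes passed in either direction. With length and GC trends removed 0 and 0 members passed, with a median of −0.069. Unadjusted limma-trend p was under 0.05 there for 4 and 11 members, and for 4487 of 16350 genes in either direction. Without 1 library the counts ranged from 0 to 0 in both directions, and the median from −0.040 to 0.031. The causes were not tested. FAS, at −0.019, was at 0.041 with upper-quartile scaling, 0.046 with read totals, 0.055 with limma-voom and −0.18 with length and GC trends removed. When 1 library was left out FAS was between −0.093 and 0.054, the latter without NT1_hp2 replicate 3. MDM2, at 0.049, was at −0.16 with length and GC trends removed and between −0.040 (without negative control replicate 1) and 0.14 when 1 library was left out. Of the called members, CDKN1A passed in 6 of the 10 alternatives that kept all libraries, XPC in 7 and the other 6 in 8 each. Depth limits TIGAR and TP53I3 most, at 34 to 93 reads per library.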

Other observations

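Relatives of the members were measured as a list of 14 genes, of which 13 were tested, with 0 higher and 1 lower in limma-trend (7.69% lower, against 8.92% of all tested genes). Their median change was 0.015 on the log2 scale. The gene that fell was PLK1, as given above. GADD45B, a relative of GADD45A, was at 24.2 and 18.4 FPKM in the negative control and at 14.5 and 16.4 FPKM in NT1_hp2, with a log2 difference of −0.43 that did not pass (limma-trend adjusted p = 0.106). PRKAB2, the other beta subunit of AMPK, was at 15.7 and 15.4 FPKM in the control and at 21.4 and 18.4 FPKM in NT1_hp2. Its difference of 0.33 did not pass (limma-trend adjusted p = 0.0665), and it was opposite in sign to that of PRKAB1. The difference between these pairs of relatives was not tested. SESN3, CCNG2 and BTG1 were at 0.12, 0.077 and 0.015, also without passing.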
